A study of Homo sapiens with 13 samples.

Results

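The RNA of 9 transcription factor genes that pattern the neural tube was examined in 2 small cell lung cancer (SCLC) lines under the SMARCA2/SMARCA4 ATPase inhibitor FHD-286. The genes were *DBX1*, *DBX2*, *PAX2*, *PAX6*, *PAX8*, *NKX2-2*, *NKX6-1*, *IRX3* and *OLIG2*, and they were found by symbol among the 56831 rows of each expression table. All 9 were listed. *DBX1* was chosen for its rise in treated H82, so its values in that line are a description, without a test and without a fold change. H82 and H146 are established SCLC lines of neuroendocrine type with a wild-type label, both grown in RPMI1640 with serum. Each line had 3 untreated libraries. Treated cells had received 100 nM of FHD-286 over 14 days with the drug renewed, in 3 libraries of H82 and 4 of H146. The untreated cells had no added agent according to the labels. Each line stands for 1 tumour, and the labels do not say whether replicates were separate cultures, so p-values measure the spread between these libraries, which may be technical.

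In the embryonic neural tube, Sonic hedgehog from the floor plate and BMP and WNT signals from the roof plate set up opposing gradients. Progenitors read these gradients as bands of transcription factors that repress each other across band borders. *NKX2-2*, *NKX6-1* and *OLIG2* belong to the ventral bands that need hedgehog, whereas *PAX6*, *IRX3*, *DBX1* and *DBX2* are held back by it and mark more dorsal or intermediate bands. *DBX1* marks the band that gives rise to V0 interneurons, and *PAX2* and *PAX8* are switched on in several classes of interneuron that leave the cycle. *OLIG2* encodes a basic helix-loop-helix factor, *PAX2* and *PAX8* encode paired-domain factors with only part of a homeodomain, and the other 6 genes encode homeodomain factors.

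The sequences before the starts of *DBX1*, *NKX6-1* and *NKX2-2* are shown because these genes had the highest or the most changed values below. RefSeq (GRCh38.p14) gave promoter entries for 6 of the 9 genes, and *DBX2*, *IRX3* and *OLIG2* had none in the table. Each sequence is the 250 bases before an annotated start, on the minus strand, with TATAAA and CCAAT on either strand in capitals.
DBX1, chr11:20160476-20160725: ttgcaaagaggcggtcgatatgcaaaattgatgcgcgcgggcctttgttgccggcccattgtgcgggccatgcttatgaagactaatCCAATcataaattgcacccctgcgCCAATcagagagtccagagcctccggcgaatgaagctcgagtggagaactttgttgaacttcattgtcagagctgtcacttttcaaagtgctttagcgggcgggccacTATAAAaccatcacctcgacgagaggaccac
NKX6-1, chr4:84499293-84499542: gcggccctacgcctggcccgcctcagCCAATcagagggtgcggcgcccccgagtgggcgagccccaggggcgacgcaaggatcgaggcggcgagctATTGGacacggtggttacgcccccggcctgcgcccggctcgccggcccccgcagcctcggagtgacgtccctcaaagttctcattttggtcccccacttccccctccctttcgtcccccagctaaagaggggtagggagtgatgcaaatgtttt
NKX2-2, chr20:21512961-21513210: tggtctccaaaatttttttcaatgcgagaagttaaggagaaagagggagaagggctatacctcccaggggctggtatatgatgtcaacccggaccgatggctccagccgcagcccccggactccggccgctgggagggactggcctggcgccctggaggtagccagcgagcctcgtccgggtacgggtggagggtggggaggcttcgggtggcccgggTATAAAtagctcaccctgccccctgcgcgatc
The *DBX1* and *NKX6-1* windows end at the first base of the gene in GENCODE release 44, while the *NKX2-2* window lies in an intron of the gene as that release draws it, and a further RefSeq start of *NKX2-2* lies outside it. *DBX1* had a TATAAA that began 31 bases before the start and 2 CCAAT that began 163 and 139 bases before it. The *NKX2-2* window had a TATAAA that began 32 bases before the start and no CCAAT. The 250 bases before the further *NKX2-2* start, not printed here, differed, with no TATAAA and 2 CCAAT that began 201 and 175 bases before it. The *NKX6-1* window had 2 CCAAT and no TATAAA. Of 34788 promoter entries of the same length, 10.8% held TATAAA and 32.0% held CCAAT. GACCACCCA, a core that GLI factors bind, was in 0.201% of entries and TAATTA, a homeodomain core, in 4.37%, and none of the 3 windows held either. GC made up 51.6% of the *DBX1* window, 67.6% of the *NKX6-1* window and 62.8% of the *NKX2-2* window, where the median entry had 58.0%. These matches describe letters in a window and were not tested for function.

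Values are TPM, read counts that the authors divided by gene length and scaled to the same sum in each library, so that levels can be compared between genes. Reads per library are not in the values and the depth is unknown. A gene that reached 1 TPM in 3 or more libraries of a line was tested with limma on log2(TPM + 1), and a gene was called at a Benjamini-Hochberg adjusted p under 0.05 over all genes tested. Fold changes on this scale understate the change of low genes. Over all tested genes the median change was -0.56 in H82 and 0.25 in H146 on this scale, and each gene's change is to be read against that median. Mitochondrial genes took 12.3% to 14.9% of TPM in treated H82 against 22.1% to 24.1% in untreated H82, and 3.82% to 11.4% against 7.56% to 8.86% in H146. All 6 neuroendocrine markers (*SYP*, *CHGA*, *INSM1*, *NCAM1*, *NEUROD1* and *DLL3*) reached 1 TPM in H82 and 5 of 6 in H146, where *NEUROD1* did not. The markers did not move together in H82. *SYP* fell from 193 to 212 TPM in untreated to 31.5 to 58.1 TPM in treated libraries, *CHGA* from 114 to 159 to 14.3 to 62.5 TPM and *NEUROD1* from 224 to 234 to 48.0 to 112 TPM. *INSM1* rose from 12.5 to 15.8 TPM in untreated to 32.1 to 296 TPM in treated H82. The groups overlapped for *DLL3* (89.5 to 121 TPM untreated and 87.3 to 159 TPM treated) and *NCAM1* (51.8 to 53.7 and 52.5 to 71.1 TPM). The summed level of all 6 was 700 to 781 TPM in untreated and 266 to 736 TPM in treated H82, the highest in replicate 2, and 1441 to 1751 TPM in untreated and 1030 to 1289 TPM in treated H146. Most of the H146 sum was *INSM1*, at 1140 to 1405 TPM in untreated and 758 to 1018 TPM in treated libraries. *DLL3* also fell in H146 (63.6 to 75.3 and 43.8 to 49.8 TPM), whereas the H146 groups overlapped for *SYP*, *CHGA* and *NCAM1*. In bulk RNA, fewer cells that express a gene and less RNA per cell cannot be told apart.

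The treated H82 libraries differed among themselves. Over all genes replicate 1 was the least alike, with a Pearson's r of log2 values of 0.965 and 0.971 with replicates 2 and 3, which had 0.983 with each other, and 16633 genes reached 1 TPM in it against 15554 and 15604. Replicate 2 stood apart by genes of the other line. Over 78 genes that were listed at 0 in untreated H82 and reached 20 TPM in every untreated H146 library, the summed level was 180 TPM in replicate 2 against 40.4 and 14.6 TPM in treated replicates 1 and 3. The epithelial marker *EPCAM* reached 32.8 TPM in it, against 3.08 and 1.11 TPM in the others, and *INSM1* was at 296 TPM against 32.1 and 33.9 TPM. Epithelial markers summed to 8.02 to 63.4 TPM in treated H82, with 3 of 5 reaching 1 TPM, against 1.49 to 3.41 TPM in untreated H82, and without replicate 2 the treated sums were 8.02 and 14.2 TPM. Fibroblast markers summed to 7.06 to 34.0 TPM in treated H82, with 5 of 6 reaching 1 TPM, against 0.912 to 1.84 TPM in untreated H82. Leukocyte markers summed to 2.34 to 4.28 TPM in treated and 2.92 to 7.90 TPM in untreated H82. In H146, fibroblast markers went from 8.13 to 11.2 TPM in untreated to 18.3 to 36.6 TPM in treated libraries, leukocyte markers from 6.82 to 9.96 to 9.72 to 20.2 TPM, and epithelial markers from 1353 to 1377 down to 522 to 590 TPM. The epithelial sum fell through *EPCAM*, *KRT8* and *KRT18*. *CDH1* did not fall (45.5 to 60.8 TPM in untreated and 55.9 to 90.2 TPM in treated H146), and *KRT5* was at most 0.346 TPM. The part of these other genes in the results below was not tested, and main H82 values that rest on replicate 2 are given with and without it.

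*DBX1* (ENSG00000109851.7, hg38 chr11:20156155-20160475, minus strand, 4 exons) went from no listed RNA in untreated H82 to one of the higher levels in treated H82. It was listed at 0 TPM in all 3 untreated H82 libraries and at 35.7, 192 and 180 TPM in treated replicates 1, 2 and 3. The groups did not overlap, and replicate 1 lay well below the other treated libraries. Of all tested genes in H82, 16.4% had every treated library above every untreated one, and nothing is read from *DBX1* being among them because the rule used this contrast. The mean of treated H82 was 136 ± 87.0 TPM (SD, n = 3), and it was 108 TPM without replicate 2 and 186 TPM without replicate 1. By level, *DBX1* was gene number 3419, 827 and 866 of the 3 treated libraries.

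Few genes listed at 0 in untreated H82 reached such a level with treatment. In untreated H82, 22058 genes were listed at 0 in all 3 libraries, and 554 of them were above 0 in all treated libraries. Of these, 61 reached 1 TPM and 6 reached 10 TPM in all 3. The 6 were *APOH*, *DBX1*, *FGB*, *SERPINA1*, *FGG* and *FGA*, and the other 5 encode plasma proteins that the liver secretes. *DBX1* had the highest mean, ahead of *FGB* at 106 TPM, and the second highest value in the lowest library, after *APOH* at 37.1 TPM. *DBX1* was chosen by these same values, so a high rank was fixed in advance and nothing is read from it.

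In H146, *DBX1* went the other way. It was at 3.92, 5.07 and 3.48 TPM in untreated H146 and at 1.03, 0.617, 1.71 and 1.45 TPM in treated H146. All 4 treated libraries lay below the 3 untreated ones. The change was -1.24 on the log2(TPM + 1) scale (standard error 0.23, limma adjusted p = 0.00284), where 15.5% of the 19585 genes tested in H146 were called lower and 17.3% had every treated library below every untreated one. In order of level, treated H82 came first, then untreated H146, then treated H146 and last untreated H82, and no neighbouring groups in that order overlapped. The 3 treated H82 libraries held *DBX1* at 858%, 4616% and 4331% of the untreated H146 mean. The 78 genes above had a median of 0.230%, 0.971% and 0.0281% of theirs. Whether RNA of the other line had a part in the *DBX1* values was not tested. The difference between the lines was not tested for *DBX1*, because its H82 values chose it.

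**Figure D1:**
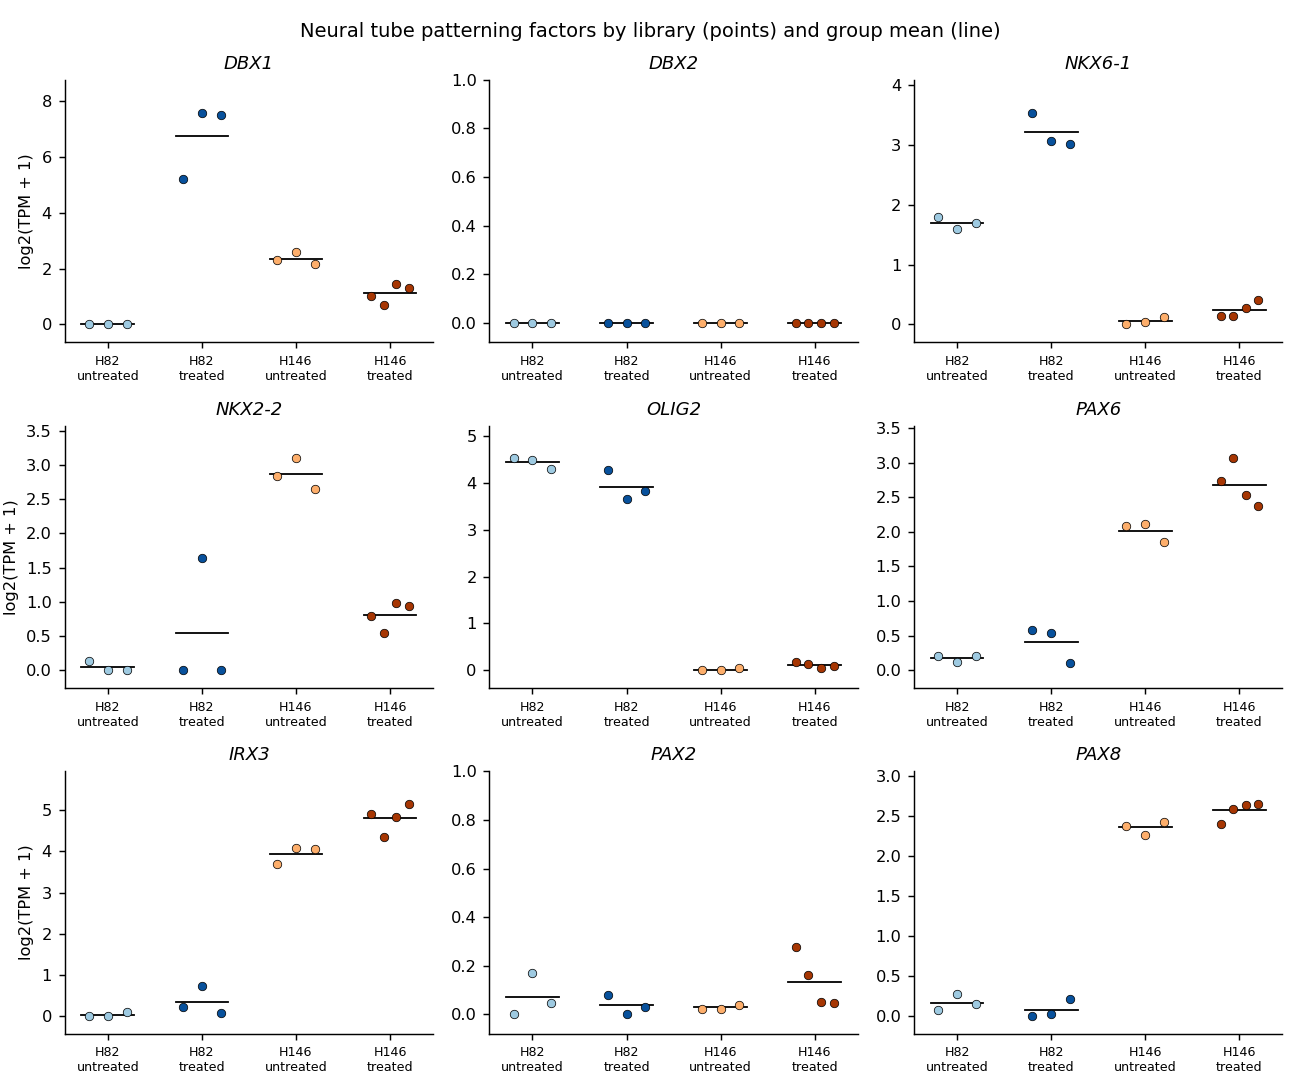
Level of each of the 9 genes as log2(TPM + 1) in 13 libraries, with a point per library and a line at the mean of each group (3 untreated and 3 treated H82, 3 untreated and 4 treated H146). The vertical scales differ between panels. *DBX1* is at 0 in untreated H82 and between 35.7 and 192 TPM in treated H82, *NKX6-1* and *OLIG2* are above 1 TPM only in H82, and *NKX2-2*, *PAX6*, *IRX3* and *PAX8* only in H146 apart from 1 treated H82 library of *NKX2-2*.

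*DBX1* has no overlapping gene in GENCODE release 44. Its nearest protein-coding neighbours are *NAV2*, 34554 bases away at lower coordinates, and *HTATIP2*, 203210 bases away at higher coordinates, both on the opposite strand. As *DBX1* is on the minus strand, *HTATIP2* is on the side of its start. In H82, *NAV2* averaged 0.0686 TPM without and 0.213 TPM with treatment and did not pass the filter on low values. *HTATIP2* was at 0.0686, 0 and 0.0732 TPM in untreated H82 and at 2.39, 14.7 and 1.05 TPM in treated H82, the highest again in replicate 2, and averaged 126 TPM in untreated and 94.2 TPM in treated H146. Its log2 fold change was 2.19 in H82 (limma adjusted p = 0.0294). It passed the filter only through the treated libraries, so it could have no fit when any 1 of these was left out. Without the filter it was not called (limma adjusted p = 0.0642). The change was -0.42 in H146 (limma adjusted p = 0.0122). Neither neighbour approached the *DBX1* level in treated H82.

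*DBX2* (ENSG00000185610.6, chr12:45014672-45051099), the paralogue that shares intermediate progenitor bands with *DBX1*, was listed at 0 in all 13 libraries. No test was possible for it. Its neighbour *NELL2* was called in both lines, lower in H82 (-0.84, limma adjusted p = 0.00274) and higher in H146 (0.99, limma adjusted p = 0.00378, and 0.0113 without the filter, which it passed in H146 only through the treated libraries).

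Among the ventral factors, *NKX6-1* was an H82 gene that rose with treatment. *NKX6-1* (ENSG00000163623.10, chr4:84491985-84499292, 3 exons) marks ventral progenitors. It was at 2.49, 2.02 and 2.26 TPM in untreated H82 and at 10.6, 7.38 and 7.11 TPM in treated H82. Every treated library lay above every untreated one, as for 16.4% of tested genes. The log2 fold change was 1.51 (standard error 0.22, limma adjusted p = 0.00118), and it was 1.58 without replicate 2 (limma adjusted p = 0.00392). Of the 8 genes open to a test in H82, 2 passed the filter, 1 was called higher and none was called lower, where 58.6% of all 19770 tested genes were called, 13.1% higher and 45.5% lower. The other tested gene, *OLIG2*, was lower at the unadjusted limma threshold of 0.05, and an adjusted threshold of 0.1 called it.

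In H146, *NKX6-1* was at 0, 0.0311 and 0.0849 TPM without and at 0.107, 0.104, 0.209 and 0.324 TPM with treatment. All of these were far below 1 TPM. The treated libraries lay above the untreated ones, as for 11.3% of the genes below the filter that had any value above 0. The exact permutation test on mean log2(TPM + 1) gave a two-sided p = 0.0571 (n = 3 and 4), the smallest p that this design allows. The test cannot pass 0.05 here, so nothing is read from its p.

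*OLIG2* (ENSG00000205927.5, chr21:33025935-33029196, 2 exons), which marks motor neuron progenitors and later oligodendrocytes, was the highest of the 9 in untreated H82. It was at 22.1, 21.4 and 18.8 TPM in untreated and at 18.4, 11.7 and 13.2 TPM in treated H82. The treated libraries lay below the untreated ones, as for 51.4% of tested genes, by a narrow margin for replicate 1. Its change of -0.52 (standard error 0.20) missed the threshold (limma adjusted p = 0.0576) and was close to the median of all genes, and without treated replicate 1 it was -0.70 (limma adjusted p = 0.00337). With the median of ratios between libraries it was -0.05. In H146 *OLIG2* was between 0 and 0.131 TPM in all 7 libraries. The treated ones lay above the untreated ones, as for 11.3% of the genes below the filter that had any value above 0. The exact permutation test gave p = 0.0571 (n = 3 and 4), the smallest p possible, so nothing is read from it. The family neighbour *OLIG1* averaged at most 0.129 TPM in any group.

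*NKX2-2* (ENSG00000125820.6, chr20:21511017-21514064, 2 exons) marks the most ventral neuronal progenitors, next to the floor plate, and needs the strongest hedgehog signal. It was at 6.18, 7.57 and 5.30 TPM in untreated H146 and at 0.735, 0.458, 0.974 and 0.909 TPM in treated H146. The groups were far apart, and 17.3% of tested genes had every treated library below every untreated one. The change was -2.05 on the log2 scale (standard error 0.19, limma adjusted p = 0.000122). *NKX2-2* passed the filter only through the untreated libraries, where it was high, so a fall was favoured by the filter, and it had no fit when any 1 of these was left out. In the fit without the filter, its adjusted p was 0.000798 (limma).

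In H82, *NKX2-2* was at 0.0917, 0 and 0 TPM without and at 0, 2.12 and 0 TPM with treatment, so that its only value above 1 TPM came from replicate 2. That value was 33.4% of the untreated H146 mean and 276% of the treated H146 mean. The groups overlapped (exact permutation test, two-sided p = 1.0, n = 3 and 3, where the smallest possible p is 0.1). *NKX2-4*, a related homeobox gene 113491 bases from *NKX2-2* at lower coordinates on the same strand, was called higher in both lines. It went from 16.3, 17.1 and 19.6 TPM to 30.9, 38.5 and 36.0 TPM in H82 (log2 fold change 0.95, limma adjusted p = 0.00190). In H146 the values went from 0.388, 0.557 and 0.117 TPM to 2.26, 1.38, 3.69 and 3.31 TPM (1.40, limma adjusted p = 0.00357), where it passed the filter only through the treated libraries (limma adjusted p = 0.0127 without the filter).

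The factors *IRX3* and *PAX6*, which hedgehog holds back, were above 1 TPM in H146 and not in H82. *IRX3* (ENSG00000177508.12, chr16:54283304-54286787, 4 exons) sets the dorsal border of the *OLIG2* band. It was the highest of the 9 in H146, at 11.9, 16.0 and 15.7 TPM without and at 29.2, 19.3, 27.6 and 34.5 TPM with treatment. All treated libraries lay above the untreated ones, as for 35.7% of tested genes. It rose by 0.87 on the log2 scale (standard error 0.20, limma adjusted p = 0.00898), against 32.5% of all tested genes called higher in H146. With the median of ratios the change was 0.56 (limma adjusted p = 0.0458). In H82 *IRX3* was at most 0.667 TPM, in treated replicate 2, and at or below 0.164 TPM elsewhere (exact permutation test, p = 0.2, n = 3 and 3). The difference in mean log2(TPM + 1) was 0.31, and 0.11 without replicate 2. *IRX5*, the next protein-coding gene and a member of the same family, was also called higher in H146 (0.73, limma adjusted p = 0.0437).

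*PAX6* (ENSG00000007372.25, chr11:31784779-31817961), a progenitor factor that keeps *NKX2-2* to the most ventral band, was at 3.25, 3.31 and 2.62 TPM in untreated and at 5.62, 7.38, 4.78 and 4.16 TPM in treated H146. Every treated library lay above every untreated one, replicate 4 by the least, and 35.7% of tested genes had that order. The log2 fold change was 0.66 (standard error 0.20, limma adjusted p = 0.0272). This call was lost when libraries were rescaled by their median of ratios (0.40, limma adjusted p = 0.144) or by quantile normalization (0.39, limma adjusted p = 0.143). It was also lost without each untreated library in turn and without treated replicate 1 (limma adjusted p = 0.0587 to 0.0975). In H82, *PAX6* was between 0.0735 and 0.488 TPM and the groups overlapped (exact permutation test, p = 0.4, n = 3 and 3). The antisense RNA *PAUPAR* and the gene *ELP4* overlap *PAX6* on the opposite strand, and whether the counts used strand is not given in the sources used here, so their reads cannot be told apart from those of *PAX6* with certainty. In H146 *ELP4* fell (-0.67, limma adjusted p = 0.00867).

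The interneuron factors *PAX8* and *PAX2* gave no call. *PAX8* (ENSG00000125618.18, chr2:113215997-113278921) was at 4.17, 3.81 and 4.39 TPM in untreated and at 4.28, 5.02, 5.23 and 5.26 TPM in treated H146, and the groups overlapped. Its change of 0.21 missed the threshold (standard error 0.15, limma adjusted p = 0.273), and it was -0.05 with the median of ratios. In H82 *PAX8* was at most 0.210 TPM. The antisense RNA *PAX8-AS1* overlaps *PAX8* and averaged 7.44 TPM in untreated and 8.91 TPM in treated H146. *PAX2* (ENSG00000075891.24, chr10:100735396-100829944) was at most 0.211 TPM in all 13 libraries. In H146 its treated libraries lay just above the untreated ones, as for 11.3% of the genes below the filter that had any value above 0. The exact permutation test gave p = 0.0571 (n = 3 and 4), the smallest p possible, so nothing is read from it. In H82 the *PAX2* groups overlapped.

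Of the 9 genes, 5 passed the filter in H146, with 2 called higher and 2 called lower, where 47.9% of all tested genes were called in either direction. *DBX1* and *NKX2-2* fell and *IRX3* and *PAX6* rose. In H82 only *DBX1*, *NKX6-1* and *OLIG2* passed it.

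The lines differed in which of the factors they held before treatment. In a fit over all 13 libraries, *IRX3* (log2 difference 3.91), *NKX2-2* (2.82), *PAX8* (2.19) and *PAX6* (1.84) were higher in untreated H146 than in untreated H82, and *OLIG2* (-4.43) and *NKX6-1* (-1.65) were lower. These 6 tested genes were past the threshold (largest limma adjusted p = 1.34e-05 for *NKX2-2*), as were 70.9% of all 24374 genes in that fit, 29.5% higher and 41.4% lower in H146. *DBX1* was left out of this comparison because the rule used its untreated H82 values.

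The response to FHD-286 differed between the lines for 3 of 6 tested genes, against 59.3% of all genes (46.0% with the higher change in H146 and 13.3% with the lower). The change of *NKX2-2* in H146 minus that in H82 was -2.56 (limma adjusted p = 0.000733), and it was -2.01 without treated H82 replicate 2 (limma adjusted p = 7.91e-05). For *NKX6-1* the difference was -1.32 (limma adjusted p = 0.000484), and without that replicate it was -1.39 (limma adjusted p = 0.000745). With a pseudocount of 0.1 the *NKX6-1* difference was -0.81 and not past the threshold (limma adjusted p = 0.211). *OLIG2* had a difference of 0.62 (limma adjusted p = 0.0425), where the median over all genes was 0.75, and it was 0.15 with the median of ratios (limma adjusted p = 0.640). It was 0.49 without that replicate (limma adjusted p = 0.1001). *NKX6-1* and *OLIG2* were far below 1 TPM in H146, and so was *NKX2-2* in every H82 library but treated replicate 2. The log2(TPM + 1) scale flattens change at such levels. *NKX6-1* averaged 0.0387 TPM in untreated and 0.186 TPM in treated H146, against 2.25 and 8.38 TPM in H82. Its difference between the lines therefore need not mean a smaller relative change in H146. *IRX3* (0.56, limma adjusted p = 0.149), *PAX6* (0.43, limma adjusted p = 0.208) and *PAX8* (0.30, limma adjusted p = 0.226) were not past the threshold.

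**Figure D2:**
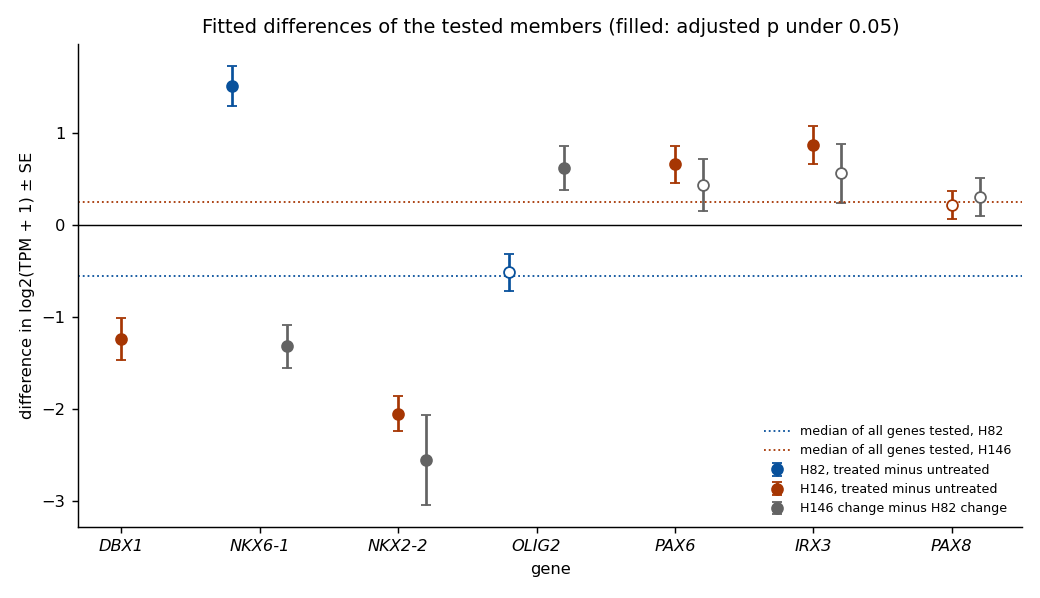
Fitted difference in log2(TPM + 1) with its standard error for treated against untreated H82 (blue), treated against untreated H146 (orange-brown) and the difference between these changes (grey). Filled points have a limma adjusted p under 0.05, and dotted lines mark the median of all tested genes in each line, -0.56 in H82 and 0.25 in H146. *NKX2-2* in H146 (-2.05) and *NKX6-1* in H82 (1.51) lie farthest from those medians, and *DBX1* in H82 is left out because it was chosen on those values.

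The genes most like *DBX1* over the 13 libraries were not patterning genes. Pearson's r of log2(TPM + 1) with *DBX1* was computed for 24373 genes as a description, since libraries of a group share their line and treatment. The highest were *BCO1* (r = 0.991), a carotenoid-cleaving enzyme, *CBR1* (r = 0.982), a carbonyl reductase, *RFK* (r = 0.973), riboflavin kinase, *NDUFA2* (r = 0.965), a complex I subunit, and *MRPL21* (r = 0.962), a mitochondrial ribosome protein. *BCO1* averaged 0.443 TPM in untreated H82, 13.3 TPM in treated H82, 2.43 TPM in untreated H146 and 1.08 TPM in treated H146, the same order of groups as *DBX1*. Of the patterning genes listed below, *EN1* had r = 0.848 and *MSX2* had r = 0.832. *NKX6-1* had r = 0.645.

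The split of *DBX1* among treated H82 libraries was also seen in other genes, among them the BMP antagonist *NOG*. Replicate 1 was the least alike of these libraries over all genes, and *SMO* and *NEUROD1* were lowest in it too. The share of all genes with such a split was not counted, so no link between *DBX1* and *NOG* is read from it. *DBX1* in replicates 2 and 3 was 5.38 and 5.05 times its level in replicate 1, *NOG* was 3.83 and 3.55 times, and the proneural factor *NEUROG1* was 4.10 and 4.20 times. *NKX6-1* had its highest value in replicate 1. *NEUROG1*, named after its values were seen, was not called in H82.

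**Figure D3:**
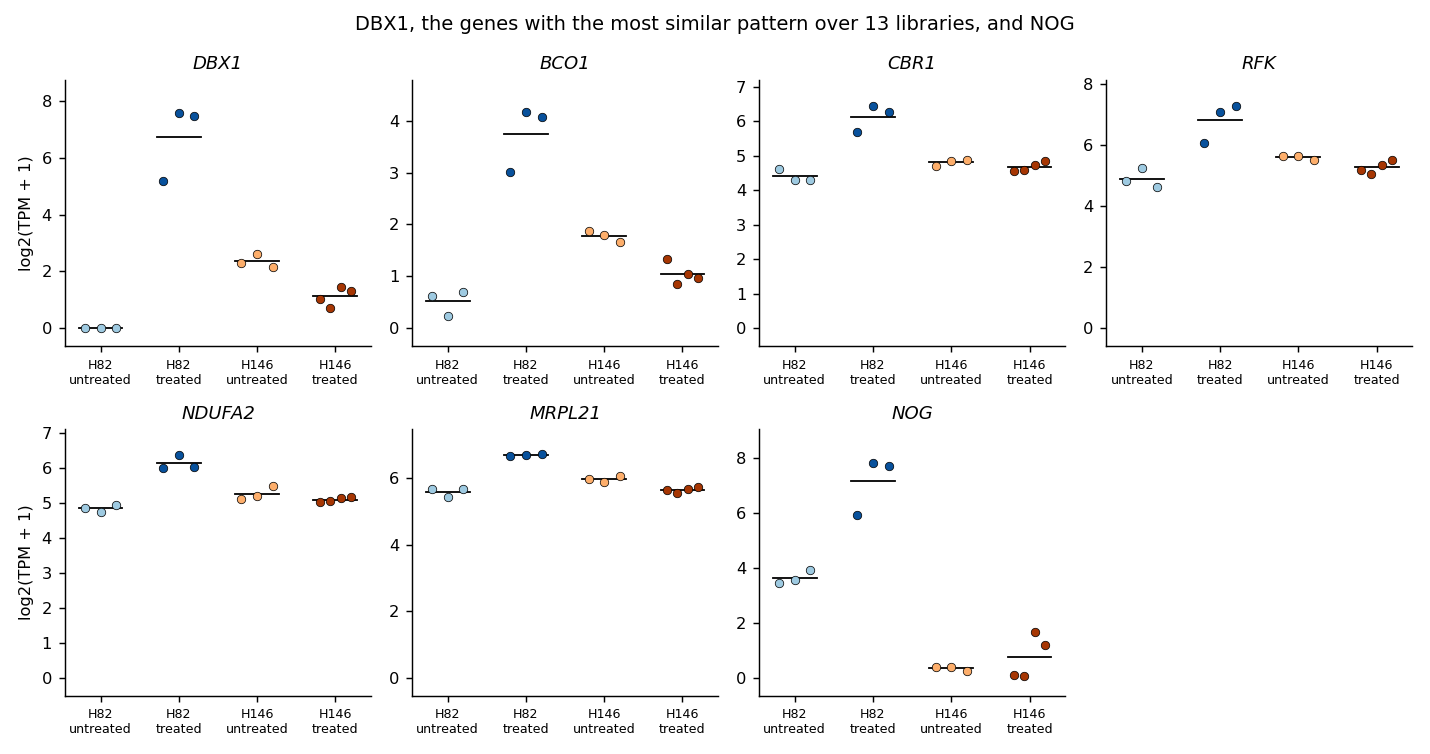
Level as log2(TPM + 1) by library of *DBX1*, the 5 genes with the highest Pearson's r to it over 13 libraries (0.962 to 0.991) and *NOG*, with a line at each group mean. In all 7 panels the treated H82 libraries are the highest, and replicate 1 is the lowest of them.

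The other genes of the system were taken from a list of 76 genes in 4 roles. Of these, 31 were tested in H82, with 12 called higher and 7 lower and a median log2 fold change of -0.16, where 13.1% of all tested genes were higher and 45.5% lower. In H146, 37 were tested, with 19 called higher and 6 lower and a median of 0.73, where 32.5% of all tested genes were higher and 15.5% lower. With the median of ratios the counts were 13 and 6 in H82 and 17 and 9 in H146, and with quantile normalization 16 and 3 in H82 and 18 and 7 in H146. The balance in H82 changed with the filter. Without the filter, 72 genes were tested in H82, with 12 called higher and 10 lower. With the filter, the counts were 4 higher and 7 lower without treated replicate 2 or without replicate 3. They were 5 higher and 7 lower without replicate 1. Only 23 of the 76 genes passed the filter in each of these fits. A gene under 1 TPM in all untreated H82 libraries could not reach 1 TPM in 3 libraries there. The loss of higher calls was thus set in part by the filter. *BHLHE22*, not called with all libraries (limma adjusted p = 0.0545), was among the genes that left. Without replicate 2 or without replicate 3, some gene that was still tested therefore lost its call too. How far the higher calls depend on single libraries cannot be read from these counts.

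Of 11 morphogens and antagonists, 2 were tested in H82 and both were called, as were 58.6% of all tested genes. *NOG*, which binds and blocks BMPs, rose from 9.93, 10.7 and 14.1 TPM to 59.5, 228 and 211 TPM (log2 fold change 3.53, limma adjusted p = 0.00113), and by 3.19 without replicate 2. *CHRD*, which encodes another BMP antagonist, fell from 15.3, 13.4 and 17.8 TPM to 8.74, 1.40 and 2.39 TPM (-1.93, limma adjusted p = 0.0130), though not past the threshold with quantile normalization (limma adjusted p = 0.0616). The 2 antagonists went opposite ways in H82. In H146, *CHRD* fell from 20.7, 19.3 and 18.7 TPM to 3.60, 4.41, 3.34 and 2.01 TPM (-2.28, limma adjusted p = 0.000110). *FST*, an activin and BMP antagonist, rose from 3.93, 3.97 and 3.29 TPM to 36.8, 34.0, 62.7 and 67.2 TPM (3.37, limma adjusted p = 4.46e-05), and *BMP2* rose (1.20, limma adjusted p = 0.00126). *NOG* was at most 2.15 TPM in H146.

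Of 11 receptors and transducers of hedgehog, 7 were tested in each line. *SMO*, the signal transducer, rose in both. It went from 3.51, 4.57 and 5.18 TPM to 23.5, 47.6 and 52.5 TPM in H82 (2.89, limma adjusted p = 0.000455) and from 3.34, 4.03 and 3.18 TPM to 30.3, 25.5, 36.4 and 34.2 TPM in H146 (2.84, limma adjusted p = 1.08e-05). *PTCH1*, the main receptor and also a target, rose in H146 from 1.01, 1.11 and 0.700 TPM to 15.0, 12.2, 14.3 and 14.2 TPM (2.94, limma adjusted p = 8.33e-06). *HHIP*, a target that binds the ligand, fell in H146 (-1.15, limma adjusted p = 0.00230), and *GLI1* was called in neither line.

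Of 26 other progenitor factors, 9 were tested in H82, with 4 higher and 1 lower, and 10 in H146, with 6 higher and 1 lower. The shares over all tested genes were 13.1% higher and 45.5% lower in H82, and 32.5% and 15.5% in H146. In H82, *SOX2* (3.28, limma adjusted p = 0.0387) was mostly in treated replicate 2, and so was *FOXA2* (2.70, limma adjusted p = 0.0476). *SOX2* was at 3.99, 71.6 and 1.73 TPM and *FOXA2* at 2.62, 35.7 and 1.08 TPM in treated replicates 1, 2 and 3. Neither could pass the filter when any 1 of these libraries was left out. Without the filter neither was called (limma adjusted p = 0.0784 and 0.0946). *PAX3*, a dorsal factor, fell (-0.91, limma adjusted p = 0.00432), but under quantile normalization its change was 0.12. In H146, *SP8*, a zinc finger factor of neural progenitors, rose from 16.5, 19.5 and 16.0 TPM to 206, 236, 252 and 243 TPM (3.68, limma adjusted p = 1.15e-06). *PRDM13*, a dorsal progenitor repressor, rose by 1.48 in H82 (limma adjusted p = 0.0238) and by 1.58 in H146 (limma adjusted p = 0.000234). Its untreated H82 libraries were far apart, at 1.29, 0.158 and 3.19 TPM, against 5.40, 5.21 and 5.10 TPM in treated H82. *FOXA2*, a floor plate factor, fell in H146 (-0.64, limma adjusted p = 0.0290, or 0.0625 with quantile normalization).

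Of 28 factors of postmitotic neurons, 13 were tested in H82, with 6 higher and 4 lower, and 15 in H146, with 8 higher and 3 lower. Over all tested genes, 13.1% were higher and 45.5% lower in H82, and 32.5% and 15.5% in H146. *ISL1*, a motor neuron factor, rose in H82 from 0.266, 0.180 and 0.497 TPM to 7.59, 27.4 and 7.66 TPM (3.29, limma adjusted p = 0.00122). It could not pass the filter when any 1 of the treated libraries was left out. *LHX2*, a dorsal interneuron factor, rose as well (2.43, limma adjusted p = 0.000435). *SIM1*, a V3 interneuron factor, fell in H82 from 8.29, 9.87 and 8.81 TPM to 0.915, 0.808 and 1.06 TPM (-2.37, limma adjusted p = 0.000170), and *LHX3*, of motor neurons and V2 interneurons, fell as well (-2.03, limma adjusted p = 0.000236). In H146, *BHLHE22*, an interneuron factor, rose from 29.3, 55.8 and 33.3 TPM to 505, 291, 387 and 468 TPM (3.38, limma adjusted p = 4.41e-05). *LHX4* rose by 2.88 in H146 and fell by 1.53 in H82. *GATA2*, a V2b factor, fell in H146 (limma adjusted p = 0.000464), and *GATA3* fell in H146 (-0.51) and rose in H82 (1.53). *ISL1* and *GATA3* in H82 and *LHX4* in H146 passed the filter only through the treated libraries, where they were high, and *LHX3* in H82 and *HHIP* in H146 only through the untreated ones, and in the fit without the filter these 5 kept their call (largest limma adjusted p = 0.0159). *EVX1* and *EVX2* are factors of V0 neurons that follow *DBX1* in development, were singled out after their values were seen, and did not pass the filter in either line. *EVX1* was at 0 in all 6 H82 libraries, and at 0, 0 and 0.0260 TPM in untreated and 0.295, 0.413, 0.160 and 0.418 TPM in treated H146. *EVX2* was at 0.365, 0.370 and 0.682 TPM in untreated and 0.0569, 0.0991 and 0.182 TPM in treated H82, and at 0.0459, 0.160 and 0.228 TPM in untreated and 1.23, 0.861, 0.613 and 0.643 TPM in treated H146. In neither line was *EVX1* or *EVX2* higher in the group with more *DBX1*.

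**Figure D4:**
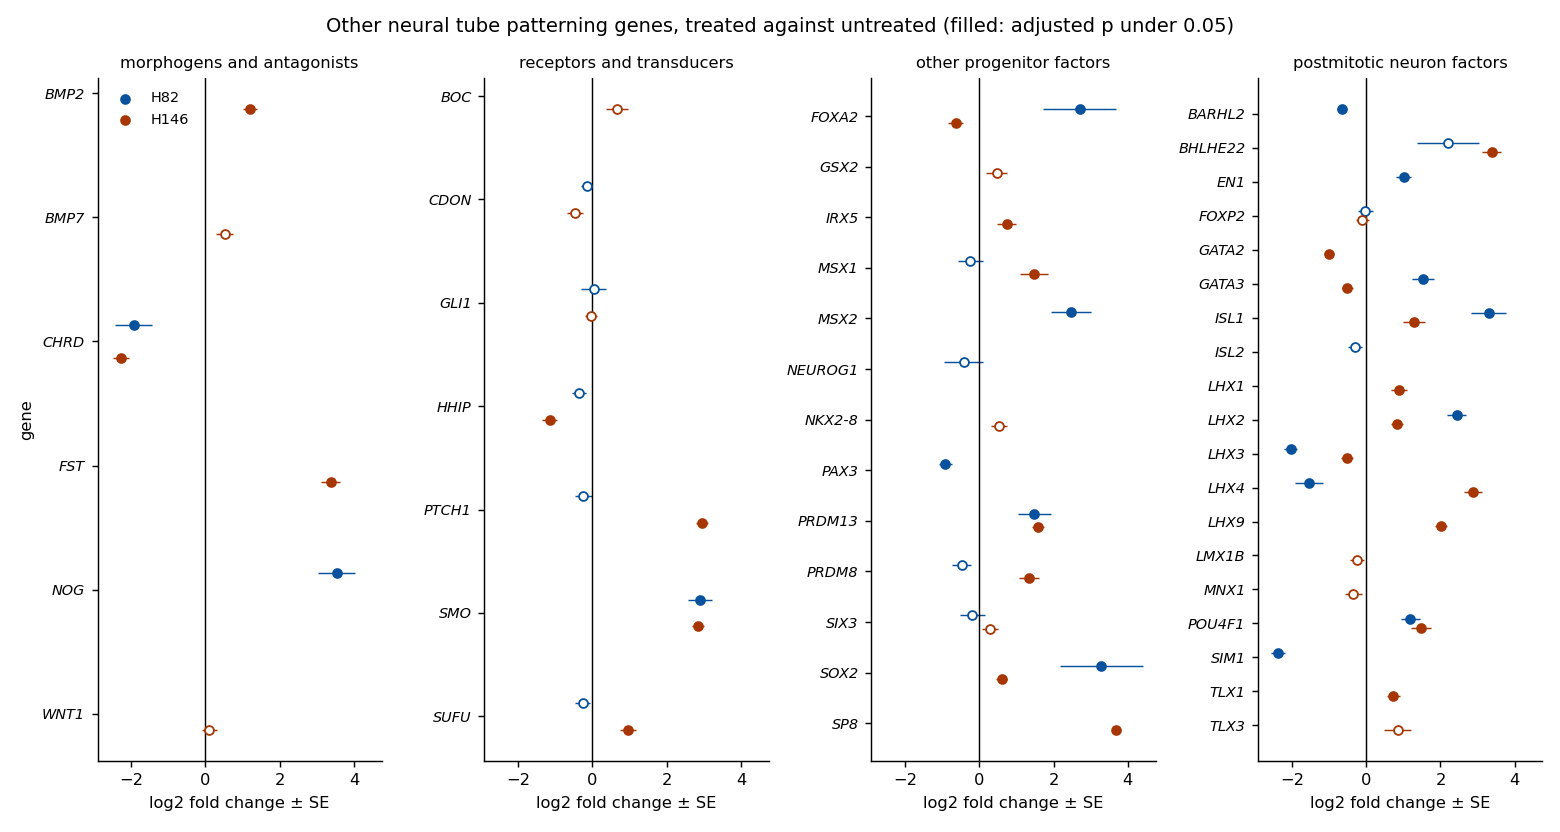
Log2 fold change on the log2(TPM + 1) scale with its standard error for tested genes among the other patterning genes, treated against untreated, in H82 (blue) and H146 (orange-brown), split by role. Filled points have a limma adjusted p under 0.05. *SMO* lies at 2.89 in H82 and 2.84 in H146, *NOG* is tested only in H82 and *FST* and *SP8* only in H146.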

How the data were processed

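RNA was measured in 13 libraries of the SCLC lines H82 and H146, untreated or under 100 nM FHD-286 for 14 days. The authors used STAR with hg38 and GENCODE release 28 to align reads and count them by gene, and the submitters' processing notes also name Trim Galore 0.4.4 and DESeq2. The deposited values are TPM, 1 table per line with the same 56831 rows, of which 29 carry symbols that were turned into dates, none of them a gene named here. The gene lengths behind TPM are not given in the sources used here, and the depth per library is unknown, so no counting interval is given. No 2 replicates held identical values (Pearson's r of log2 values 0.965 to 0.992 within groups).

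Each line was fitted with limma 3.58.1 in R 4.3.3 (lmFit, eBayes with trend) on log2(TPM + 1) for genes that reached 1 TPM in 3 or more of its libraries. Tests were two-sided, p-values were adjusted over every tested gene (Benjamini-Hochberg), and 0.05 was the threshold. The lines were compared in 1 fit over all 13 libraries. Members under the filter had an exact permutation test (scipy 1.17.1), except *DBX1* in H82. The 9 genes, the list of 76 patterning genes and the tests were chosen with earlier results of these data known. The names in the text are the 9 genes, their neighbours, the 5 genes most like *DBX1*, and per line and role the called list genes with the largest rises and falls. Genes named beside these were chosen after their values were seen. The values of 2 genes of the list are not reported here, and the counts over the list include them. The limma step was tested on simulated data. Replicate numbers did not pair the libraries. Promoters are from RefSeq, loci from GENCODE release 44.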

Additional observations from a re-analysis of the deposited data

Results flagged for a closer look

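The change with FHD-286 differed between the lines for 3 genes by the interaction of line and treatment in limma, and for *DBX1* by its values alone. The change in H146 minus that in H82 was -2.56 for *NKX2-2* and past the threshold in all 19 alternatives that gave a value, from -4.10 to -2.01. It passed the filter through untreated H146, where it was high, and 1 treated H82 library. For *NKX6-1* it was -1.32 and past the threshold in 19 of 20 alternatives. For *OLIG2* it was 0.62 and past the threshold in 5 of 20 alternatives, with the median of all genes at 0.75. *NKX6-1* and *OLIG2* were barely listed in H146, and *NKX2-2* in H82 apart from that library, so change there is flattened on this scale. *DBX1* averaged 136 TPM in treated H82 and was listed at 0 in untreated H82, whereas all treated H146 libraries lay below the untreated ones, and this difference was not tested. No group of 4 libraries held a value of the 9 genes far enough from the others to be set apart by Dixon's criterion, and groups of 3 were not tested.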

How the results depend on the processing

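*DBX1* in H146 and *NKX6-1* in H82 kept their direction and their call under every alternative that gave a value, and *IRX3* in H146 under all but a log2 fold change of at least 1. *NKX2-2* in H146 had no fit without each untreated library in turn, because it passed the filter only through these. The change of *DBX1* in H146 ranged from -1.77 to -1.10, that of *NKX2-2* from -2.92 to -1.96, that of *IRX3* from 0.56 to 1.02 and that of *NKX6-1* in H82 from 1.34 to 2.33. *PAX6* in H146 lost its call in 7 of 14 alternatives, among them no filter (limma adjusted p = 0.0584). *PAX8* in H146 turned to -0.050 with the median of ratios and -0.060 with quantile normalization. In H82 below the filter, leaving out 1 library gave -0.042 to 0.78 for *NKX2-2*, negative only without treated replicate 2, and -0.071 to 0.013 for *PAX2*, positive only without untreated replicate 2. An adjusted threshold of 0.1 gave 2 called genes of the 9 in H82, and a log2 fold change of at least 1 gave 2 in H146 and 16 of the patterning list. Leaving out 1 library gave 1 to 2 called genes in H82, 2 to 4 in H146, 2 to 4 for the difference between the lines and 6 for untreated H146 against H82, 11 to 15 of the list in H82 and 19 to 26 in H146, and a *DBX1* mean of 108 to 186 TPM in treated H82. In H146 the count was 2 without each untreated library in turn, where *NKX2-2* no longer passed the filter and *PAX6* lost its call. Same-numbered untreated and treated libraries had correlations of -0.11 to 0.03 of their deviations, so the numbers were not taken to pair them. With the replicate block, 1 gene of the 9 was called in H82, 4 in H146, 2 for the difference between the lines and 6 for the untreated lines, with 20 of the list in H82 and 22 in H146. Values are TPM without read counts, so what depth limits could not be given.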
